A study of Solanum lycopersicum with 10 samples.

Results

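A set of 38 loci of tomato (Solanum lycopersicum) was lower in auxin-treated root tips and higher in auxin-treated leaf primordia. They were chosen from 35767 loci by measured values. The change in a tissue was the mean of log2(value + 1) over the treated libraries minus that over the mock libraries. A member had a root change of -0.7 or less and a leaf change of 0.7 or more, with no overlap of treated and mock libraries in either tissue. Its mean also reached at least 15 normalized counts in mock root and in treated leaf. Both auxin comparisons therefore entered the choice, and the values below describe the members without testing them.

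All plants were of line M82. The root arm used seedlings kept at 22 °C under constant light on plates. On day 4 after germination they went onto 1 µM 2,4-D for 3 h, and root tips 1 cm long were cut (n = 2), beside mock root tips (n = 2). The leaf arm used 3-week-old plants from a greenhouse, which received a spray of 1 µM picloram or of mock solution and were sampled after 3 h, when 15 primordia of leaf 5 at the P5 stage were collected (n = 3 each). The arms differed in tissue, in compound, in age and in the way the plants were grown and dosed, so the parts of these in a difference between root and leaf cannot be told apart. The labels do not say whether replicates came from separate plants.

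Both 2,4-D and picloram are synthetic auxins. Auxin is bound by receptors of the TIR1/AFB family, which then mark Aux/IAA repressors for degradation and release auxin response factors, the transcription factors that act on auxin-responsive promoters. Auxin restrains elongation of root cells at doses that promote growth in shoot tissues, and in developing leaves it marks sites of leaflet and vein formation. The deposited table gives Solyc identifiers with no gene names, and the reference gene table used here, with 41476 rows, has 0 rows that hold such an identifier. No member can therefore be given a name or function here, and members are called by their identifiers.

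Library totals ran from 2.83 to 2.96 M normalized counts in root and from 1.83 to 2.06 M in leaf. The tissue labels were checked with 16 light-harvesting and Rubisco small-subunit loci listed from memory. All 16 were higher in every leaf library than in any root library, and their summed level was 18600 to 19700 normalized counts in mock leaf, 10800 to 13500 on picloram, 1220 to 1380 in mock root and 1000 to 1100 on 2,4-D. The sums were thus lower in every picloram library than in any mock leaf library, while limma called 1 of the 16 loci lower on picloram; the part of this in the leaf change of the members was not tested. Solyc12g011450 carried most of the root sum, with up to 1260, and Solyc06g069730 was at 0 in all root libraries.

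The 38 loci together held 0.167% to 0.170% of all normalized counts in the mock root libraries and 0.0793% to 0.0971% in the 2,4-D libraries. In leaf they held 0.228% to 0.292% under mock and 0.521% to 0.637% on picloram. Root levels per locus were spread widely, from a mock mean of 15.2 to 774 normalized counts with a median of 54.1. Of the members, 12 had a mock root mean under 30, 14 between 30 and 100, and 12 at 100 or more. In these bulk samples, fewer cells of a type and less RNA per cell cannot be told apart.

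**Figure D1:**
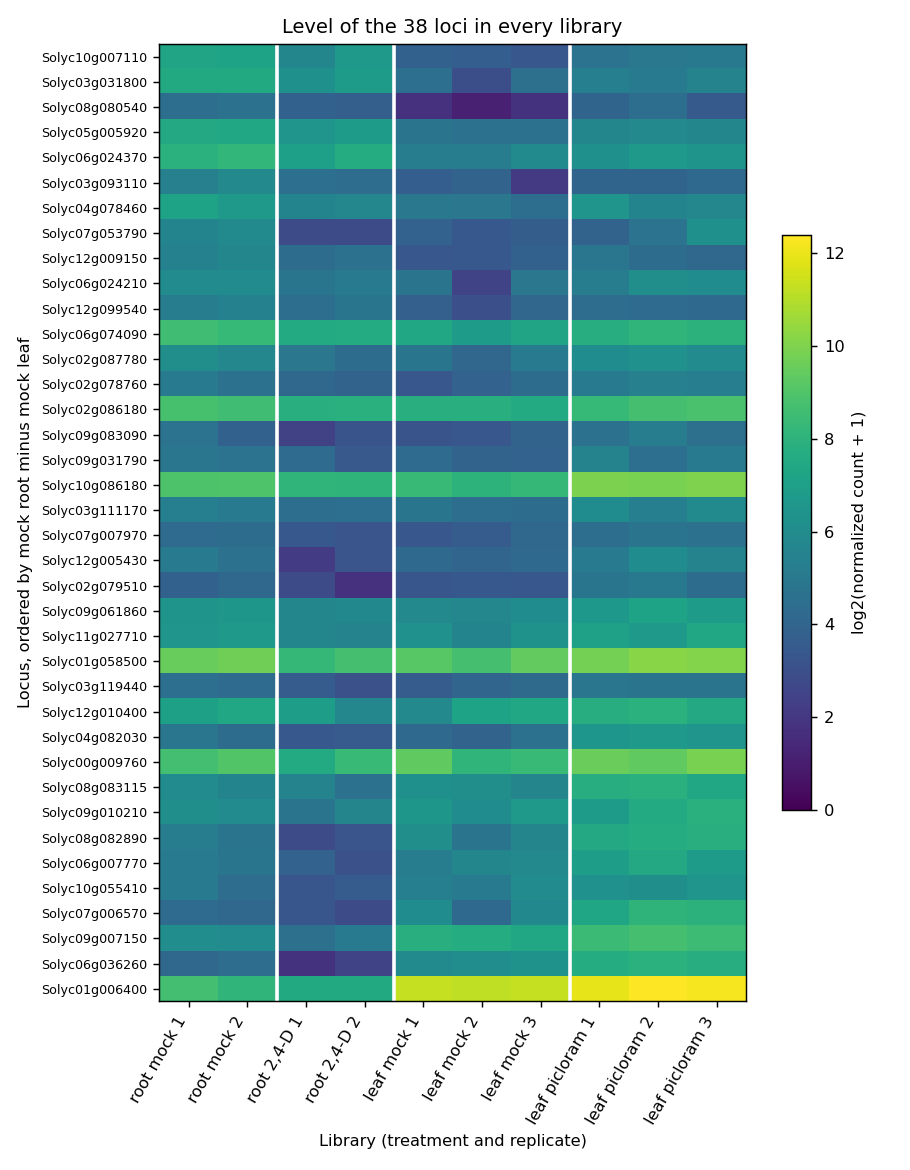
Each row is 1 of the 38 loci and each column 1 library, with the colour giving log2(normalized count + 1). Rows run from the locus with the highest mock root minus mock leaf difference (Solyc10g007110) to the lowest (Solyc01g006400), and every row darkens from root mock to root 2,4-D and brightens from leaf mock to leaf picloram, as the choice of members fixes.

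The median root change was -1.01 on the log2(value + 1) scale (range -2.93 to -0.701), against -0.027 over the 11313 loci tested in both tissues. As a ratio of means, the 2,4-D level was 0.498 of the mock level at the median member, and 0.114 to 0.625 over all. The median leaf change was 1.11 (range 0.701 to 2.43), against -0.016 over the same 11313 loci, and the picloram level was 2.23 times the mock level at the median member (1.59 to 7.69). In 24 members the leaf change was the larger in size and in 14 the root change. Both changes reached 1 in size for 13 members. Across the 38 members, which share the same libraries and a truncated range, root and leaf change had a Pearson r of -0.235 and a Spearman rho of -0.23, given as a description.

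**Figure D2:**
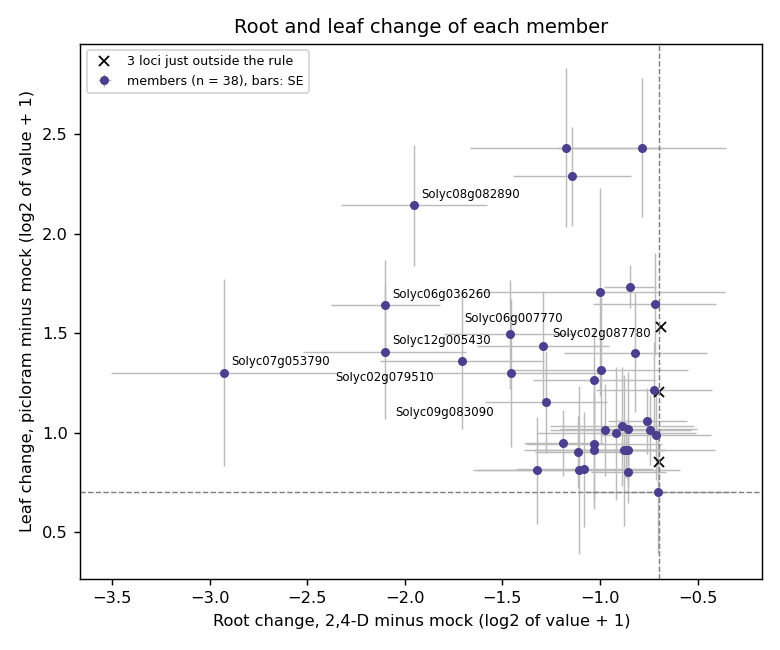
Each point is 1 member at its root change (2,4-D minus mock, horizontal) and its leaf change (picloram minus mock, vertical), both on the log2(value + 1) scale, with standard errors from the model over all loci. Dashed lines mark the thresholds of -0.7 and 0.7, crosses the 3 loci just outside them, and the labelled points the 8 members with the largest change in their weaker tissue, from Solyc07g053790 at -2.93 in root to Solyc08g082890 at 2.14 in leaf.

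The member with the largest change in its weaker tissue was Solyc08g082890. It stood at 36.1 and 26.6 normalized counts in mock root, 6.08 and 8.65 on 2,4-D, 67.8, 26.5 and 49.5 in mock leaf, and 179, 204 and 222 on picloram. The treated root libraries were the lowest of all 10 and the picloram libraries the highest, while mock root and mock leaf overlapped. Its change was -1.95 ± 0.37 in root and 2.14 ± 0.30 in leaf (SE).

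Solyc06g036260 had 16.5 and 20.5 normalized counts in mock root and 2.51 and 4.83 on 2,4-D, a change of -2.10 ± 0.28 (SE). In leaf it had 60.6, 66.5 and 80.9 under mock and 203, 241 and 208 on picloram, a change of 1.64 ± 0.23 (SE). Every leaf library thus stood above every root library in both states. Treatment took the root minus leaf difference of log2 levels from -1.85 to -5.59.

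Solyc06g007770 followed the same order at 33.3 and 26.8 in mock root, 14.0 and 7.39 on 2,4-D, 37.1, 50.2 and 56.2 in mock leaf, and 117, 180 and 116 normalized counts on picloram. Its changes were close in size, -1.46 ± 0.34 in root and 1.49 ± 0.27 in leaf (SE). Mock leaf exceeded mock root in every library, as it did for Solyc06g036260.

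Solyc12g005430 had its higher mock level in root. It stood at 31.9 and 23.2 in mock root against 17.9, 15.7 and 17.6 normalized counts in mock leaf, and at 3.51 and 8.58 on 2,4-D against 34.7, 65.1 and 45.4 on picloram. Root was the upper tissue without auxin and the lower with it, with no overlap in either state. The changes were -2.10 ± 0.42 and 1.41 ± 0.34 (SE).

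Solyc02g079510 changed places in the same way from lower levels. It had 13.5 and 16.8 normalized counts in mock root, 6.03 and 2.45 on 2,4-D, 9.10, 9.59 and 9.21 in mock leaf, and 26.7, 31.1 and 19.8 on picloram. The step of low values, taken as the median of values above 0 and under 1.6, was 0.793 to 1.22 normalized counts depending on the library. The root change of -1.71 ± 0.42 and leaf change of 1.36 ± 0.34 (SE) of Solyc02g079510 rest on low levels. With a pseudocount of 5 in place of 1 they were -1.15 and 1.09.

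Solyc07g053790 had the largest root change of all members. It stood at 47.3 and 59.7 normalized counts in mock root and 6.10 and 6.13 on 2,4-D, a change of -2.93 ± 0.58 (SE). In leaf it was uneven, at 13.9, 9.72 and 11.6 under mock and 14.4, 25.1 and 73.8 on picloram. The lowest picloram library lay just above the highest mock library, and the leaf change was 1.30 ± 0.47 (SE).

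Solyc09g083090 and Solyc02g087780 complete the set. The first had 25.1 and 13.4 normalized counts in mock root, 4.28 and 8.46 on 2,4-D, 8.21, 9.32 and 14.3 in mock leaf, and 23.8, 35.7 and 22.9 on picloram. The second had 68.8 and 51.6, then 28.9 and 19.5 in root, and 27.4, 15.8 and 31.8, then 63.2, 77.1 and 60.9 in leaf. For Solyc02g087780 the treated root means of 24.2 ± 6.61 (SD, n = 2) came down to the mock leaf mean of 25.0 ± 8.25 (SD, n = 3), and the picloram mean of 67.0 ± 8.76 (SD, n = 3) came up to the mock root mean of 60.2 ± 12.2 (SD, n = 2).

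**Figure D3:**
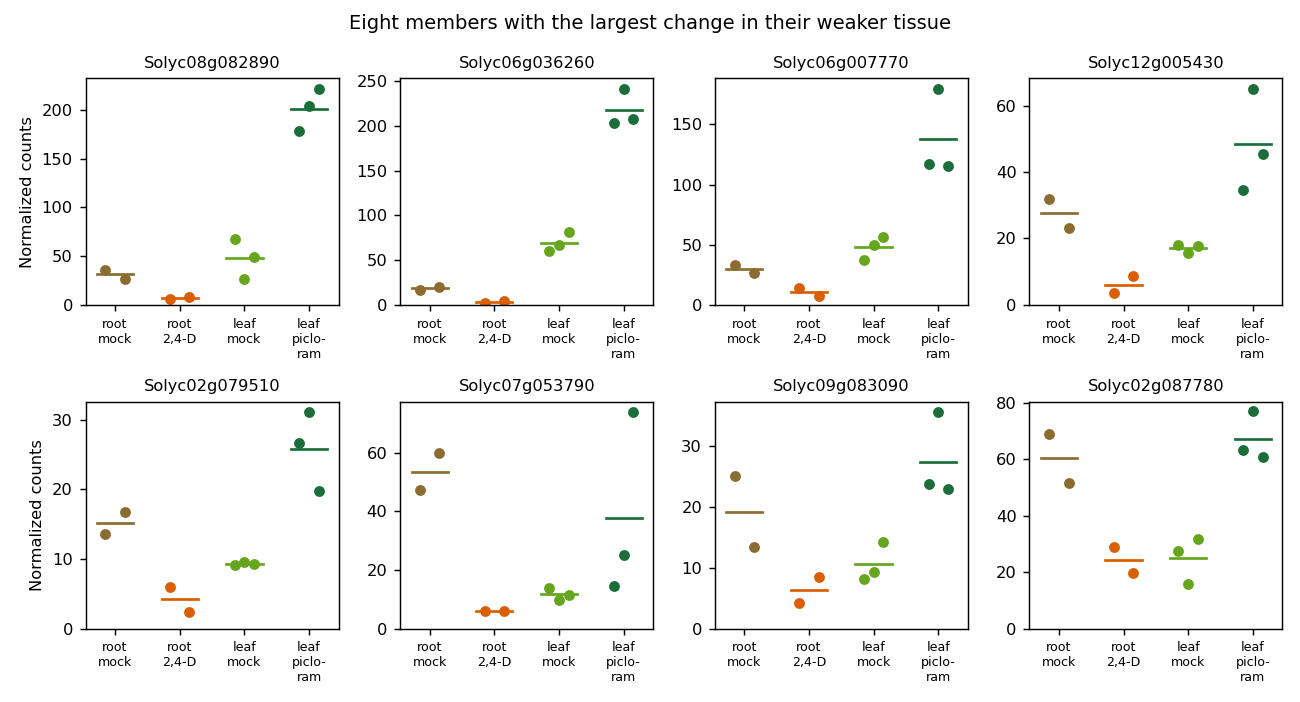
Normalized counts (linear axis from 0) of the 8 members with the largest change in their weaker tissue, in each library (points) and as group means (lines), for root mock and 2,4-D (n = 2 each) and leaf mock and picloram (n = 3 each). In each panel the 2,4-D points lie below the root mock points and the picloram points above the leaf mock points; Solyc07g053790 has 1 picloram library at 73.8 and the others at 14.4 and 25.1.

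Members of high level tended to have the smaller root change. Across the 38 members the root change had an r of 0.37 and a rho of 0.437 with the log2 mock root level. This is a description, since the mock level enters both measures. Solyc01g058500 had the highest mock root level, at 719 and 830 normalized counts, with 300 and 425 on 2,4-D, 567, 431 and 681 in mock leaf, and 874, 1146 and 1085 on picloram. Its changes were -1.11 ± 0.22 and 0.90 ± 0.18 (SE).

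Solyc10g086180 had the smallest standard errors of the members. It gave 480 and 497 normalized counts in mock root, 276 and 267 on 2,4-D, 330, 256 and 301 in mock leaf, and 978, 956 and 1007 on picloram. Replicates lay close together in each group, and the leaf change of 1.73 ± 0.11 was larger in size than the root change of -0.85 ± 0.13 (SE). Solyc00g009760 was as abundant but uneven, with 413 and 527 in mock root, 188 and 337 on 2,4-D, 649, 273 and 320 in mock leaf and 762, 663 and 962 on picloram. Mock leaf library 1 came close to the lowest picloram library there, and the changes were -0.89 ± 0.37 and 1.03 ± 0.30 (SE).

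Solyc01g006400 was the most abundant member in leaf, with 2547, 2345 and 2528 normalized counts under mock and 3938, 5354 and 4787 on picloram. In root it stood at 412 and 271 under mock and 186 and 183 on 2,4-D. Leaf thus exceeded root in every library of both states, and the changes were -0.86 ± 0.19 in root and 0.91 ± 0.15 in leaf (SE).

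How the tissues compared without auxin was examined next. The mock libraries also entered the choice of members, so this is a description too. Every mock root library was above every mock leaf library in 25 members and below in 5, and the other 8 overlapped. Of the 9310 loci that reached the same level minimum in mock root and treated leaf, 48.9% were above and 23.5% below. In the fit over all loci, 18 of 38 members were called higher in mock root (background 32.7%) and 4 lower (background 29.8%). This order depends on how root is scaled against leaf. With equal library totals the root minus leaf median of all loci moved by -0.541 on the log2 scale, 14 members had every mock root library above mock leaf, and 12 were called higher and 9 lower. With recomputed median ratio size factors these counts were 23, 16 and 6, and with quantile normalization 25, 21 and 3. The shares over all loci were not computed under these scalings.

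Under treatment the order was mostly the other one. Each member had to fall in root and rise in leaf, so the choice fixes a shift towards leaf. The counts below, set beside loci without that choice, are a description. Every 2,4-D library was below every picloram library in 29 members and above in 6, and 3 overlapped. Among the 9310 loci at the same levels, 25.3% were below and 48.7% above. In 16 members root was the upper tissue under mock and the lower under treatment, with no overlap in either state. This number was 10 with equal library totals, 15 with recomputed median ratio size factors and 14 with quantile normalization. Root stayed above leaf in both states in 6 members and below in 5.

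**Figure D4:**
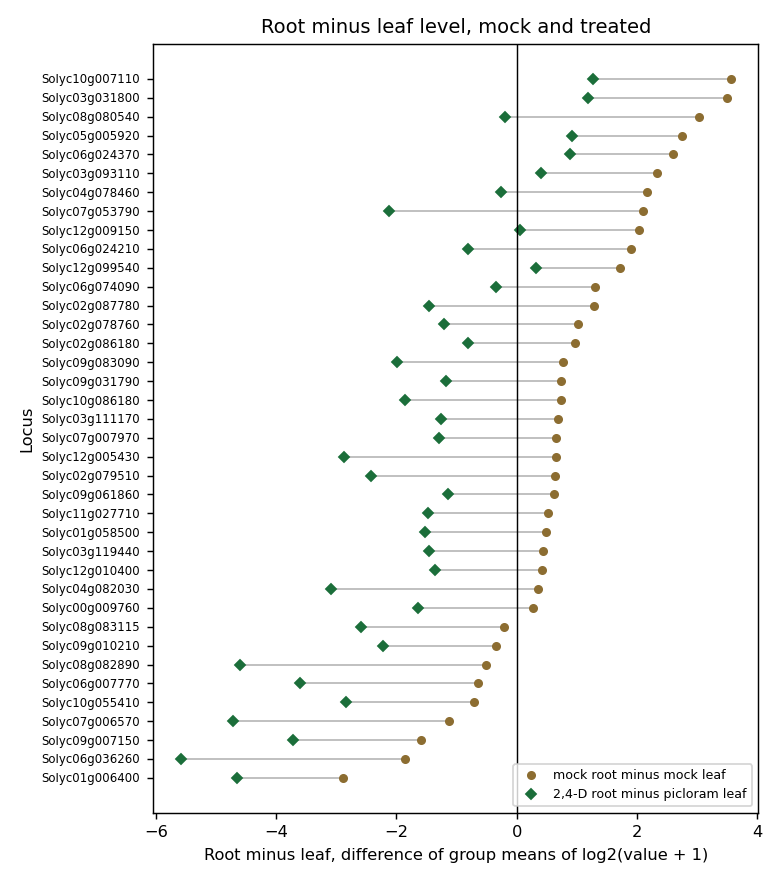
For each member, the root minus leaf difference of mean log2(value + 1) in mock (circles) and in treated samples (diamonds), with the zero line where root and leaf are equal. Mock differences run from 3.56 (Solyc10g007110) to -2.88 (Solyc01g006400), and the mean difference crossed 0 in 22 of 38 members. The choice of members fixes that each diamond lies to the leaf side of its circle. Values are as deposited, and the order of root and leaf depends on that scaling, as the text describes.

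The members most biased to root kept that bias. Solyc10g007110 had 148 and 143 normalized counts in mock root and 50.8 and 98.4 on 2,4-D, against 13.2, 12.0 and 9.31 in mock leaf and 25.4, 30.3 and 31.1 on picloram. Its root minus leaf difference went from 3.56 to 1.27 on the log2 scale. Solyc03g031800 went from 3.50 to 1.19, with 182 and 185 in mock root, 73.9 and 113 on 2,4-D, 22.1, 6.99 and 22.5 in mock leaf and 39.5, 34.0 and 46.3 on picloram.

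Solyc08g080540 nearly lost the tissue difference, from 3.02 to -0.19. It had 21.5 and 24.6 normalized counts in mock root, 13.5 and 12.4 on 2,4-D, 2.37, 1.18 and 2.48 in mock leaf, and 14.9, 21.0 and 10.5 on picloram. The treated libraries of both tissues overlapped. Its leaf change of 2.43 ± 0.35 (SE) starts from mock levels of a few normalized counts and was 1.52 with a pseudocount of 5. Its root change was -0.78 ± 0.43 (SE), and -0.642 with that pseudocount. At the other end, Solyc09g007150 was lower in root in every library, at 67.1 and 61.4 under mock and 22.7 and 33.6 on 2,4-D, against 220, 199 and 171 in mock leaf and 349, 428 and 362 on picloram.

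A leaf change of 2 or more was found in 4 members, Solyc08g082890 and Solyc08g080540 given above and a further pair named after their values were seen. Solyc07g006570 had 64.1, 18.1 and 54.4 normalized counts in mock leaf and 162, 268 and 246 on picloram, a change of 2.43 ± 0.40 (SE), with 19.3 and 16.5 in mock root and 8.80 and 6.14 on 2,4-D. Solyc04g082030 had 17.9, 14.6 and 23.4 in mock leaf and 88.7, 103 and 88.4 on picloram, a change of 2.29 ± 0.25 (SE), with means of 23.9 ± 5.51 in mock root and 10.2 ± 0.954 on 2,4-D (SD, n = 2 each). Its mock tissues overlapped, and the treated tissues stood apart by -3.08 on the log2 scale, root below leaf. The 16 members not described one by one had root changes of -1.32 to -0.725 and leaf changes of 0.80 to 1.40, at mock root means of 19.6 to 411 and picloram means of 15.9 to 398 normalized counts.

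The members nearest inside the thresholds were Solyc12g099540 (root change -0.701, leaf change 0.701), Solyc06g024370 (-0.713 and 0.987) and Solyc08g083115 (-0.720 and 1.65). Just outside lay Solyc08g076670 (-0.697 and 0.853), Solyc06g053610 (-0.697 and 1.20) and Solyc10g008350 (-0.686 and 1.53), which met all other conditions. Solyc12g099540 was the weakest member, at 36.8 and 42.5 normalized counts in mock root, 21.2 and 27.0 on 2,4-D, 12.8, 7.12 and 15.8 in mock leaf and 20.6, 19.0 and 17.7 on picloram. It met the rule in 6 of 10 omissions of 1 library and under 0 of 3 other scalings.

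How strict each condition was can be read from its count. Of the 9310 loci at the level minimum, 377 met the root conditions and 446 the leaf conditions. The 38 members are 10.1% of the first and 8.52% of the second. Without the condition on overlap 61 loci would qualify. At the same thresholds, 36 loci showed the mirrored pattern of higher in root and lower in leaf, 123 were higher in both and 48 lower in both. For these the level minimum was put on treated root where root rose and on mock leaf where leaf fell. They were therefore drawn from other sets of loci than the 9310.

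A moderated linear model (limma) was fitted over all loci and called a locus at a Benjamini-Hochberg adjusted p under 0.05. All 38 members passed its minimum on low values in both tissues. It called 14 of them lower in root (background 1.07%), 27 higher in leaf (background 4.89%) and 33 for a root response below the leaf response (background 1.56%). Since the choice used these contrasts, nothing is read from the counts. Of the members, 12 were called in both tissues, 2 in root alone, 15 in leaf alone and 9 in neither, among them Solyc06g024210, Solyc00g009760 and Solyc12g099540. Of the 11313 loci tested in both tissues, 23 were called lower in root and higher in leaf. The root calls and the calls for the difference fell when any 1 root library was left out, which leaves a root group of 1 library. The share of all loci called in such a fit was not computed. The median root change of the members was then -1 without mock library 1 and -1.01 without mock library 2. It was -0.995 without 2,4-D library 1 and -1.05 without 2,4-D library 2.

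The median ratio of the highest to the lowest replicate of a member, with 1 added to each value, was 1.54 in mock leaf and 1.38 on picloram (n = 3 each). It was 1.20 in mock root and 1.34 on 2,4-D (n = 2 each), which is not comparable with leaf because a range over more libraries is wider. The choice of members used these same values, so the order of replicates among members is a description. Mock leaf library 3 held the highest of the 3 mock values in 20 of 38 members (52.6%), against 29.8% of loci at the same levels. Mock leaf library 2 held the highest in 3 (7.89%) against 34%, and the lowest in 20 (52.6%) against 28.8%. Solyc06g024210 shows it most, with 26.6, 4.74 and 29.3 normalized counts in mock leaf and 36.3, 68.7 and 63.5 on picloram. Without that library the median leaf change of the members was 1.07 in place of 1.11. Among the picloram libraries, library 1 held the lowest value in 17 members (44.7%) against 31.1% of such loci, and library 2 the highest in 21 (55.3%) against 34%.

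**Figure D5:**
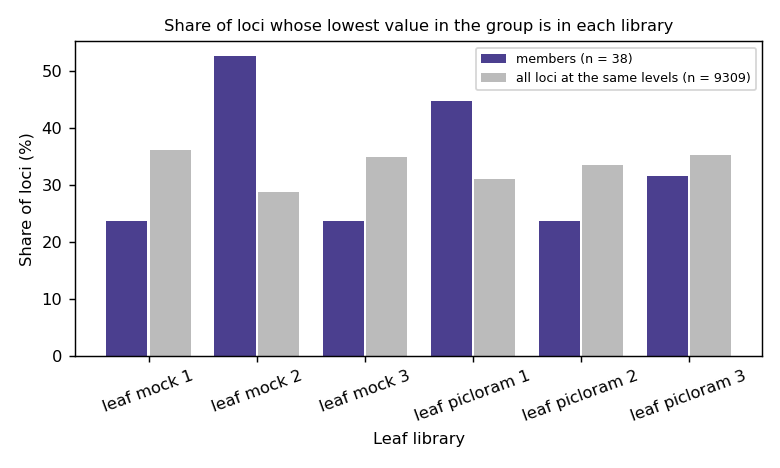
Share of loci (percent, bars from 0) whose lowest value among the libraries of the group was found in each leaf library, for the 38 members and for the 9309 loci at the same levels that were tested in leaf. Mock leaf library 2 held the lowest mock value in 52.6% of members against 28.8% of the loci at the same levels.

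By the chromosome number in the identifier, members were spread over the genome, with 5 each on chromosomes 6 and 9, 4 each on chromosomes 2, 3 and 12, and 1 to 3 on each of the others. One identifier carries the number 0, which stands for no assigned chromosome. Chromosome 1, which holds 13.4% of the 9310 loci at the same levels, had 2 members (5.26%), and chromosome 9, with 7.26% of the loci, had 13.2% of members. A single pair lay within 10 places in the order of identifiers, Solyc06g024210 and Solyc06g024370, at 10 places. Solyc06g024370 had 236 and 290 normalized counts in mock root, 126 and 201 on 2,4-D, 36.9, 36.4 and 57.3 in mock leaf and 73.0, 102 and 83.3 on picloram, and Solyc06g024210 had 62.4 and 60.9 in mock root and 27.4 and 33.5 on 2,4-D. Both were above leaf in every mock library.

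The loci next to the members in identifier order, which the choice did not use, gave 76 neighbours tested in both tissues. Their median change was -0.134 in root and 0.025 in leaf, against -0.025 and -0.017 over the 11275 tested loci that are not members. A root change below 0 with a leaf change above 0 was found in 21 of the 76 (27.6%), against 22.9% of those loci.

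Auxin-related and circadian clock loci, listed from memory by identifier, did not include a member. The 5 lists held 85 loci present in the table. Both change thresholds were checked only for the list loci tested in both tissues, and 0 of those passed. Of all loci at the level minimum, 0.655% passed both change thresholds. A count of 0 in lists this short therefore does not set these loci apart from others. A root change below 0 with a leaf change above 0, of any size, was found in 22.9% of the tested loci that are not members. It occurred in 4 of 15 Aux/IAA repressor loci tested in both tissues. The same held for 1 of 3 GH3 loci (enzymes that conjugate auxin), 4 of 13 auxin response factor loci, 2 of 9 auxin carrier loci and 2 of 7 circadian clock loci. By limma, 6 of 15 Aux/IAA loci were called higher in root and 11 of 18 in leaf (background 3.48% and 4.89%). For GH3 these were 1 of 3 and 2 of 6, for carriers 1 of 11 and 3 of 12, and for clock loci 1 of 7 and 1 of 9. Calls for lower levels among these lists were 1 carrier and 4 clock loci, all in leaf (background 5.26%). Of the response factors, 2 of 18 were called higher in leaf and 0 of 15 in root by limma, where 2 had an unadjusted p under 0.05.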

How the data were processed

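Polyadenylated transcripts were counted from their 3′ ends with a Lexogen QuantSeq kit, per the labels' protocols, in 10 libraries. The authors deposited 1 table of 35767 loci. Its values, a signal that is never negative, are gene counts that the authors normalized between libraries. The submitters' processing notes name Salmon 0.8.2 and DESeq2 and give neither a role. Build and annotation: not given in the sources used. Low values lay near multiples of a step, but within a tolerance of 0.1 and a reach of 20 steps only 58.4% to 83.4% per library were whole, so read counts were not recovered and no count test was run.

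The membership rule was applied to the deposited values. limma 3.58.1 (R 4.3.3) with a mean-variance trend was fitted on the log2(value + 1) scale to the 4 groups together and to all loci with at least 10 in at least 2 libraries of either tissue. P-values were adjusted over the loci that reached this in the tissue compared (both tissues for the difference of responses). The procedure was tested on simulated data with larger changes and higher levels than the rule requires, so its recovery near the thresholds was not tested. Fold changes on this scale understate the change of low loci. The members and lists were chosen with earlier results of these data known. Described loci are the 8 members with the largest change in their weaker tissue, the 3 highest in mock root and in treated leaf, the 3 extremes of the mock tissue difference each way, the 3 nearest each side of the threshold, and members within 10 identifier steps of another. Promoter motifs were not examined, since no sequence could be matched to the identifiers.

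Alternatives were another pseudocount (0.5 or 5), 3 other scalings, other minimums, each tissue fitted alone, a replicate block, other rule thresholds, and omission of libraries.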

Additional observations from a re-analysis of the deposited data

Results flagged for a closer look

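All 38 members moved in opposite directions in the 2 arms, every treated root library below and every treated leaf library above its own mock libraries. The choice of members fixes this. The difference of responses was called for 33 of them by limma over all loci (background 1.56%). The choice used the same libraries and contrasts, so nothing is read from this count. No libraries outside the choice were at hand to test the difference.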

How the results depend on the processing

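The number of loci that met the rule depended on its thresholds. It was 98 or 13 with a change of 0.5 or 1 in place of 0.7, 22 with a level minimum of 30, and 61 without the condition on overlap. It was 41 to 57 with 1 library left out, which eases the condition on overlap. Of these loci 30 to 37 were members and 4 to 20 were not. Under the other scalings 29 to 36 of the 38 members qualified. Of the 38, 14 met the rule in all 10 omissions of 1 library and all 3 other scalings. The median root change of the members was -0.90 with a pseudocount of 5 and -0.925 after quantile normalization. Root calls were 9 after quantile normalization, 22 with each tissue fitted alone, 1 to 18 with 1 library left out, and 0 by limma without both root libraries numbered 2, where 28 members were tested and 12 had an unadjusted p under 0.05. Without root mock library 1 or 2, 30 members were tested, since 8 members were under 10 in both 2,4-D libraries. The share of all loci called was not computed for fits with libraries left out. Calls for the difference were 13 to 32 with 1 library left out and 2 without both root libraries numbered 2, where each lone root library is assumed to vary like the leaf groups. With equal library totals, 9 members were called lower in mock root than in mock leaf, 14 had every mock root library above mock leaf, and 10 changed places; the last 2 counts were put under other scalings after seeing the data. Of 640 recomputed changes of named members, 620 moved by less than the replicate spread, 20 by more, and 0 changed sign. A change cannot move when the library left out is from the other tissue. Leaving out 1 library of its own tissue cannot move it beyond the spread used here. That spread was the root mean square of the SDs of the mock and treated groups. Treated and mock libraries of a member do not overlap, so no omission can change a sign. Much of the 620, and the 0 under omissions, was therefore fixed in advance. Whether replicate numbers pair the libraries could not be settled from the values. In root (n = 2 each) the deviations of a group mirror each other, so same and different numbers can differ only in sign. Deviations of libraries with the same number correlated at 0.11 in root, and at 0.0944, -0.000826 and 0.0222 in leaf, and not every leaf library correlated best with its own number. With the replicate block, the calls numbered 12 in root, 25 in leaf and 28 for the responses' difference.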

Other observations

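Opposite responses were not limited to the members. In all, 23 loci were called lower in root and higher in leaf by limma, and 11 of them were not members. These 11, chosen after their values were seen, were mostly abundant loci with a leaf change under the threshold. Solyc07g043460 had the highest mock root mean of them, at 1450 normalized counts, with a root change of -0.593 and a leaf change of 0.449. Solyc06g082980, at 1330, missed both thresholds narrowly (-0.694 and 0.682). Solyc10g008460 had large changes (-2.24 and 1.29) but means of 11.0 in mock root and 9.65 in treated leaf, under the level minimum.

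Among the 76 neighbours of members, 2 passed both change thresholds but failed the condition on overlap. The share of other tested loci that did so was not computed, so nothing about position is read from this count. Solyc00g010525, next to Solyc00g009760, had changes of -1.19 and 0.97 and overlapped in leaf. Solyc01g006430, next to Solyc01g006400, had changes of -0.78 and 1.06 and overlapped in root. Both were named after their values were seen.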
